A study of Mus musculus with 8 samples.

Results

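The 5 islet libraries with intact Ide are described here by themselves, without reference to any other genotype. They were chosen by their genotype label, Ide+/+, and make up 5 of the 8 libraries of the series. Each holds total RNA from pancreatic islets, picked by hand, of C57BL/6J mice that the labels call female. Their high-fat diet, with 60% of calories as fat, began when they were 10 weeks old and lasted 2 weeks. Ide encodes insulin-degrading enzyme, a zinc protease that cleaves insulin, glucagon and amylin. No library of mice on another diet was used, so the values describe Ide+/+ islets on the high-fat diet. The labels number the libraries as biological replicates 1 to 5 and do not name the animals or say how many each library pooled, so p-values measure the spread between these libraries. Values listed in fives are in the order of replicates 1 to 5.

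Islets are clusters of hormone cells inside the exocrine pancreas. Beta cells store insulin and amylin, alpha cells glucagon, delta cells somatostatin and PP cells pancreatic polypeptide, all in dense granules whose release is set by glucose and membrane voltage. Acinar cells surround the islets and make digestive enzymes as zymogens, in very large amounts, so that islets picked by hand can carry acinar transcripts with them. The transcription factor complex PTF1, formed by PTF1A, an E protein and RBPJ or RBPJL, drives acinar enzyme genes from sites that join an E box to a TTTCCC box, and NR5A2 acts with it on AAGGTCA sites. 4 enzymes served as a partial measure of acinar RNA in each library. They were Cpa1 (carboxypeptidase A1), Cela2a (a chymotrypsin-like elastase), Pnlip (pancreatic lipase) and Ctrb1 (chymotrypsinogen B1).

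The sequences just upstream of these 4 genes are shown because they are the genes whose summed share orders the libraries below. They come from RefSeq on build GRCm38.p6 and are read on the gene's own strand from 250 bases before the RefSeq start up to the start, which is left out. The Cela2a window stops after 95 bases, at chr4:141826161-141826255 on the minus strand, where the first exon in GENCODE M21 begins. The other windows are chr6:30638968-30639217 on the plus strand for Cpa1, chr19:58670115-58670364 on the plus strand for Pnlip and chr8:111691011-111691260 on the minus strand for Ctrb1. Capitals mark matches to 4 motifs. TATAAA was searched on the gene's strand. The box TTTCCC was searched on both strands, as were the E box CACCTG and the nuclear receptor site AAGGTCA. No printed matches overlapped.
Cpa1: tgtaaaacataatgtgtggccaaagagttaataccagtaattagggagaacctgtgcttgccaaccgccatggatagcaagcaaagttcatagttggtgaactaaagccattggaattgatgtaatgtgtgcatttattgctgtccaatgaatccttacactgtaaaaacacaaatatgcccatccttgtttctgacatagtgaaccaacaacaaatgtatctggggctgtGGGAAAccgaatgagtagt
Cela2a: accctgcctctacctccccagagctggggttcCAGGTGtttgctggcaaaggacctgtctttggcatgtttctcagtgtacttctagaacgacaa
Pnlip: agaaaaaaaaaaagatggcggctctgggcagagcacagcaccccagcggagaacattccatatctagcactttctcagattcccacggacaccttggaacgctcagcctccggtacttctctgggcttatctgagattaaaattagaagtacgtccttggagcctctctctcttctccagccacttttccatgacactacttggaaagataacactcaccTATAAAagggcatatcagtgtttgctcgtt
Ctrb1: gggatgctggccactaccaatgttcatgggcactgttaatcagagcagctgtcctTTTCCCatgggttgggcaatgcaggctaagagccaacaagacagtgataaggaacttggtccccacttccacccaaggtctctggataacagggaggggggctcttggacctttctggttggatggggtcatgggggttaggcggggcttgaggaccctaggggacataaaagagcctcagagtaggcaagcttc
Cpa1 held TTTCCC, read from the other strand, with its first base at -19, and Ctrb1 held it at -195. Cela2a held CACCTG, also read from the other strand, at -218. Pnlip held TATAAA at -30. No printed window held AAGGTCA.

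Across the 42 promoters of the acinar enzyme, granule and Reg lists that had a 250-base window, 23 held CACCTG (54.8%), beside 17.2% of all 32851 promoters and 23.1% of the 39 promoters of the beta, alpha and delta, PP and epsilon cell lists. TATAAA was in 13 of the 42 (31.0%), beside 7.59% of all promoters and 7.69% of the islet cell promoters. TTTCCC was in 13 of the 42 (31.0%), beside 21.9% and 23.1%. CACCTG and TTTCCC were both in 8 of the 42 (19.05%), beside 3.61% and 10.3%. AAGGTCA was in 4 of the 42 (9.52%), beside 4.08% and 2.56%. A match is a description of these letters and not a binding site.

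The libraries held 24620301, 33371642, 24479078, 26513150.0 and 19277269 gene counts, and 19054 to 24332 genes had a count of 1 or more. Ide itself had 391, 765, 572, 481 and 256 counts, so the targeted gene was expressed in every library. Replicate 1 stood apart. Its transcripts of the mitochondrial genome took 0.512% of counts, against 4.92% to 9.43% in the other libraries, and it was the library with the most Xist, the RNA of the inactive X chromosome (692 counts against 2 to 11). Ddx3y, a Y-linked gene, had 0 counts in replicate 1 and 503 to 1581 in replicates 2 to 5, although all 5 carry the label female. Eif2s3y, Kdm5d and Uty, also Y-linked, had 0 counts in replicate 1 and 84 to 1575 in replicates 2 to 5. Fits without replicate 1 therefore also leave out the only library without counts of these genes, and the part of this was not tested. Replicates 2 and 3 were nearly alike. A chi-square per gene between them was 6.31, where 1 is sampling noise, and it was 128 to 802 for the other 9 pairs. They differed by more than sampling noise, but this measure cannot tell whether they share an animal or an RNA pool. They were kept as 2 libraries, as labelled. Counts of calls below are also given without replicate 1, and with replicates 2 and 3 added together where that changed them.

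The acinar transcripts took 71.2% of the summed TPM (counts scaled for gene length and then to a fixed sum in each library) in replicate 1, and 33.4%, 33.7%, 57.8% and 63.3% in replicates 2 to 5. These are the summed levels of 52 genes, the acinar enzyme and granule lists and the Reg family. The 8 islet hormone genes took 17.3%, 28.0%, 28.5%, 16.8% and 9.25%. So the hormones that define islets were abundant in all 5 libraries, and acinar transcripts exceeded them in all 5. Genes of the mitochondrial genome (37 genes) took 0.795%, 11.8%, 11.5%, 6.81% and 10.7% of TPM, and the other 55390 genes shared 10.7%, 26.8%, 26.3%, 18.6% and 16.8%. In bulk RNA, fewer cells of a type and less RNA per cell cannot be told apart.

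**Figure D1:**
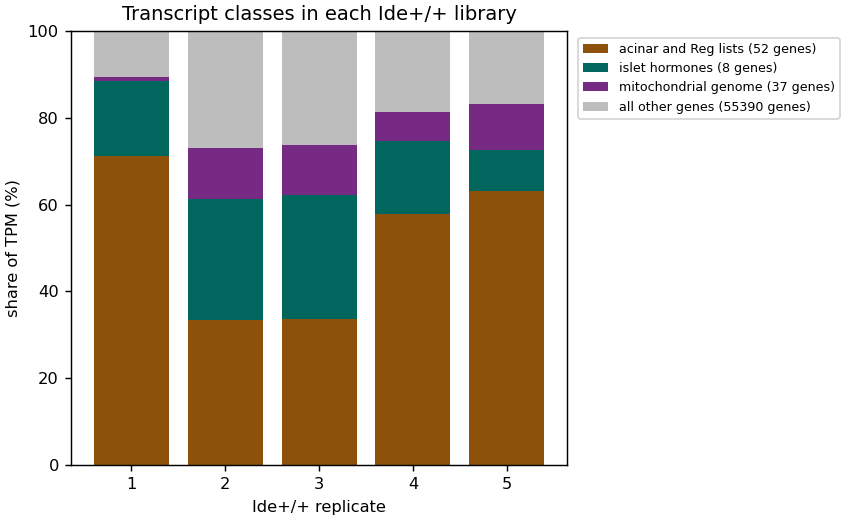
Share of TPM (vertical axis, percent) taken by acinar and Reg genes, islet hormones, the mitochondrial genome and all other genes in each Ide+/+ library (horizontal axis, replicates 1 to 5), as stacked bars that start at 0. Acinar and Reg genes take the most in replicate 1 (71.2%) and the least in replicates 2 and 3 (33.4% and 33.7%), and the mitochondrial genome is nearly missing from the bar of replicate 1 (0.795%).

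Very few genes held most of the RNA. In the mean profile 11 genes held 50% of TPM and 172 genes held 90%. By library, 6, 12, 11, 11 and 9 genes held 50%, and 49, 447, 411, 129 and 64 held 90%. Replicate 1, with the most acinar RNA, needed the fewest genes, and replicates 2 and 3, with the least, needed the most. The 20 most abundant genes took 80.4%, 62.0%, 63.1%, 65.6% and 69.1% of TPM. A TPM of 1 or more was reached by 7920, 11796, 11567, 9764 and 8642 genes, and by 7208 genes in all 5 libraries. 38 genes reached 1000 TPM in all 5.

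Ins2, the main insulin gene of the mouse, led the mean order of levels. Its TPM was 129759, 155878, 159005, 104674 and 41403. Replicates 2 and 3 were highest and replicate 5 was lowest, with a mean of 118144 ± 48216 (SD, n = 5). Cela2a was next at 114076, 54706, 58454, 106261 and 140012 TPM (94702 ± 36998, SD, n = 5), highest in replicate 5. Amy2a1, a pancreatic amylase that digests starch, stood at 153538, 52335, 56384, 74888 and 130546 TPM and was the leading gene of replicate 1. Ins2 led replicates 2 and 3, and Cela2a led replicates 4 and 5. The ranges of these 3 genes overlapped, so their order in the mean is not larger than the spread between libraries. Gcg, the glucagon gene of alpha cells, was in the fourth place at 17837, 62011, 62354, 26028 and 30938 TPM, highest in replicates 2 and 3 and lowest in replicate 1.

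Ranks 5 to 20 were taken mostly by further enzymes. Prss2 (an anionic trypsinogen, 36441 ± 9559 TPM, mean ± SD, n = 5), Clps (colipase, the cofactor of pancreatic lipase, 28343 ± 8044) and Rnase1 (pancreatic ribonuclease, 26041 ± 12057) followed Gcg. Ctrb1, Ctrl (a chymotrypsin-like protease), Cela1 (an elastase), Try4 (a trypsin), Pnlip and Cel (carboxyl ester lipase) had means from 13743 to 19506 TPM. Amy2a3, Amy2a4 and Amy2a5 lay between 13569 and 17301. The amylase copies and the trypsins are near-identical gene families, so the division of reads among their members is uncertain. The other 4 of the first 20 were mt-Atp8 and mt-Cytb, which encode subunits of ATP synthase and of complex III, Gm10925, a pseudogene copy of mitochondrial DNA on chromosome 1 that can draw reads from the organelle's own genes, and Malat1, a long RNA kept in the nucleus. Malat1 was at 2518, 24908, 25875, 16675 and 11664 TPM, and replicate 1 was again the lowest.

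**Figure D2:**
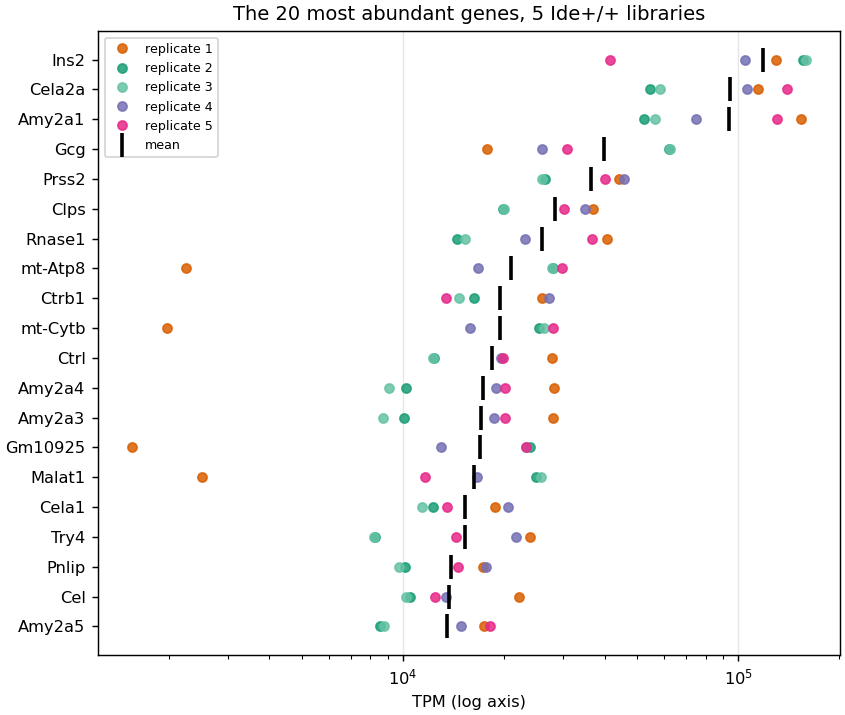
TPM (horizontal axis, log scale) of the 20 genes with the highest mean TPM over the 5 Ide+/+ libraries, with 1 point per library and the mean. Ins2, Cela2a and Amy2a1 lead with overlapping points, and replicate 1 sits far below the other libraries for mt-Atp8, mt-Cytb, Gm10925 and Malat1.

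Among the hormones the order of mean TPM was Ins2, Gcg, Ppy, Pyy, Ins1, Iapp, Sst and Ghrl. Ppy, pancreatic polypeptide, was at 2842, 20731, 22130.1, 14157 and 5533 TPM and Pyy, peptide YY, at 2506, 16149.6, 17458, 7738 and 8742. Ins1, the second mouse insulin gene, was at 9704, 13034, 12640.5, 8735 and 2474 and Iapp, which encodes amylin, at 9172, 8147, 7782, 5690.4 and 2169. The ranges of Ppy, Pyy, Ins1 and Iapp over the libraries overlapped, although within each library Ins1 was above Iapp. Sst, somatostatin, was at 1486, 4039, 3972, 1171 and 1234 TPM. Ghrl, ghrelin, was at 3.09, 26.4, 27.4, 1.23 and 3.95 TPM, the lowest of the 8 in every library. Iapp, Sst and Ghrl fall outside the rule for named genes and were chosen with their values known.

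Ratios between hormones were compared for genes of the same cell type and of different ones. The Ins2 to Ins1 ratio of TPM was 13.4, 12.0, 12.6, 12.0 and 16.7, and Ins2 to Iapp ran from 14.1 to 20.4. Both pairs belong to beta cells and moved within narrow limits. The Ins2 to Gcg ratio, between beta and alpha cells, was 7.27, 2.51, 2.55, 4.02 and 1.34, so replicates 1 and 5 were at the ends of its range. Ins2 over Ppy was 45.7 in replicate 1 and 7.19 to 7.52 in the other 4. In replicates 2 to 5 this ratio, between beta and PP cells, thus varied less than Ins2 over Ins1. Of the summed hormone TPM, Ins2 took 74.9%, 55.7%, 55.7%, 62.2% and 44.8%, and Gcg 10.3%, 22.1%, 21.9%, 15.5% and 33.4%.

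Genes of hormone storage and glucose sensing spanned a wide range of TPM. Chga, chromogranin A of the granule core, was at 474, 1119, 988, 494 and 205 TPM, and Scg2, secretogranin 2, at 370.2, 466, 455, 319 and 162. G6pc2, the islet glucose-6-phosphatase, had a mean of 241 ± 103 TPM (SD, n = 5), Slc30a8, the zinc transporter of insulin granules, 91.5 ± 34.6, and Slc2a2, the glucose transporter GLUT2, 26.1 ± 12.9. The transcription factors given here had means no higher than that of Isl1. Isl1 (28.0 ± 13.1 TPM), Pax6 (21.6 ± 12.7) and Neurod1 (19.9 ± 10.1), shared by endocrine cells, overlapped with Rbpjl (25.1 ± 6.17), the acinar subunit of PTF1. Nkx6-1 (9.74 ± 4.86) and Pdx1 (5.79 ± 2.79) of beta cells overlapped with Ptf1a (7.32 ± 2.87) and Bhlha15 (6.50 ± 2.78) of acinar cells. Mafa (2.48 ± 1.99), a beta cell activator of insulin genes, was at the lower end. The ranges of neighbours in this order overlapped over the 5 libraries.

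Markers of further cell types were present at low levels. The summed TPM of 16 macrophage markers was 168, 509, 517, 278 and 367, and that of 12 endothelial markers 21.9, 184, 177, 89.0 and 74.2. Fibroblast and stellate markers summed to 18.6, 106, 106, 56.9 and 84.3 TPM, and lymphocyte markers to 12.6, 9.06, 10.5, 2.28 and 1.93. Schwann and neural markers stayed between 2.43 and 7.64 TPM in sum. Of 7 fat cell markers 5 were listed at 0 in all 5 libraries, and Fabp4, which endothelial cells also express, made up nearly all of the rest. Replicate 1 had the lowest sum of endothelial, fibroblast and macrophage markers, and whether this has a part in the results below was not tested.

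The libraries differed in the summed count share of Cpa1, Cela2a, Pnlip and Ctrb1, and the question was which genes rose or fell with it. The share was 15.8%, 9.40%, 9.69%, 15.8% and 16.7% of counts. It thus formed 2 levels, low in replicates 2 and 3 and high in replicates 1, 4 and 5, over a range of 1.78-fold. Cela2a made up most of it, at 10.1%, 5.52%, 5.97%, 9.85% and 12.6% of counts. Cpa1 took 1.69%, 1.05%, 1.04%, 1.47% and 1.26%, Pnlip 2.22%, 1.51%, 1.46%, 2.41% and 1.92%, and Ctrb1 1.85%, 1.33%, 1.21%, 2.06% and 0.976%. For Ctrb1 the high and low libraries overlapped, since replicate 5 was the lowest. Cela2a over Ctrb1 in TPM was 10.4 in replicate 5 and 3.37 to 4.40 in the other 4. The acinar enzyme and granule lists together took 77.0%, 41.3%, 41.8%, 65.2% and 70.4% of counts. So replicates 1 and 4 had near-equal 4-enzyme shares but unlike acinar shares. Replicate 5 led the 4-enzyme share and replicate 1 the acinar share. Within the high libraries the 4-enzyme share thus does not order acinar RNA.

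For each gene a slope was fitted across the libraries. It is the change in log2 CPM (counts scaled to a fixed library size, corrected by the trimmed mean of M-values, TMM) for each doubling of the share. TMM scaling sets most genes to no change, and the median slope of the 15655 genes tested was -0.01, with 49.7% of slopes above 0. Without the TMM factor, on library totals, this median was -1.59, so slopes are read against that of all genes. With all 5 libraries, edgeR's quasi-likelihood test called 0 rising and 0 falling genes at a Benjamini-Hochberg adjusted p under 0.05 (0.0% of genes tested in each direction), and the smallest adjusted p was 0.0999. At an unadjusted p under 0.05 it gave 1402 genes with a positive slope (8.96%) and 974 with a negative one (6.22%). DESeq2 called 508 rising and 63 falling genes on the same 5 libraries, and limma-voom 16 and 2. With library totals in place of TMM, edgeR called 30 rising and 9576 falling genes.

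Without replicate 1 more genes were called, while leaving out any other single library gave 0 calls. Replicates 2 to 5 are 2 libraries with a low share and 2 with a high one, and in them edgeR called 753 rising genes (4.82% of 15630 tested) and 121 falling genes (0.774%). With the near-alike replicates 2 and 3 added into 1 library, as chosen after seeing the data, 25 rising genes (0.17%) and 1 falling gene (0.0068%) were called. Of the gene lists below, the Reg family held 4 of these calls, oxidative stress and metallothioneins 1, and every other list 0. With the share of all acinar enzyme and granule lists in place of the 4 enzymes, the 5 libraries gave 162 rising (1.12%) and 11 falling genes (0.076%). The rising calls include 16 digestive enzymes and 12 granule and membrane genes. These make up part of that share, so their calls are not results. The main test is the one with all 5 libraries, which called 0 genes. In what follows, "rose" and "fell" refer instead to the fit of replicates 2 to 5, used with the counts of calls known. These words describe that fit, which has 2 residual degrees of freedom, and are not calls of the main test. A slope printed with an adjusted p is from the fit of replicates 2 to 5, and other slopes are from all 5 libraries unless stated. That fit counts the near-alike replicates 2 and 3 as 2 libraries, so its adjusted p-values can be too small. Replicates 4 and 5 differ from 2 and 3 also in their share of mitochondrial transcripts (4.92% and 7.21% against 9.43% and 9.28% of counts), and the part of this was not tested.

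**Figure D3:**
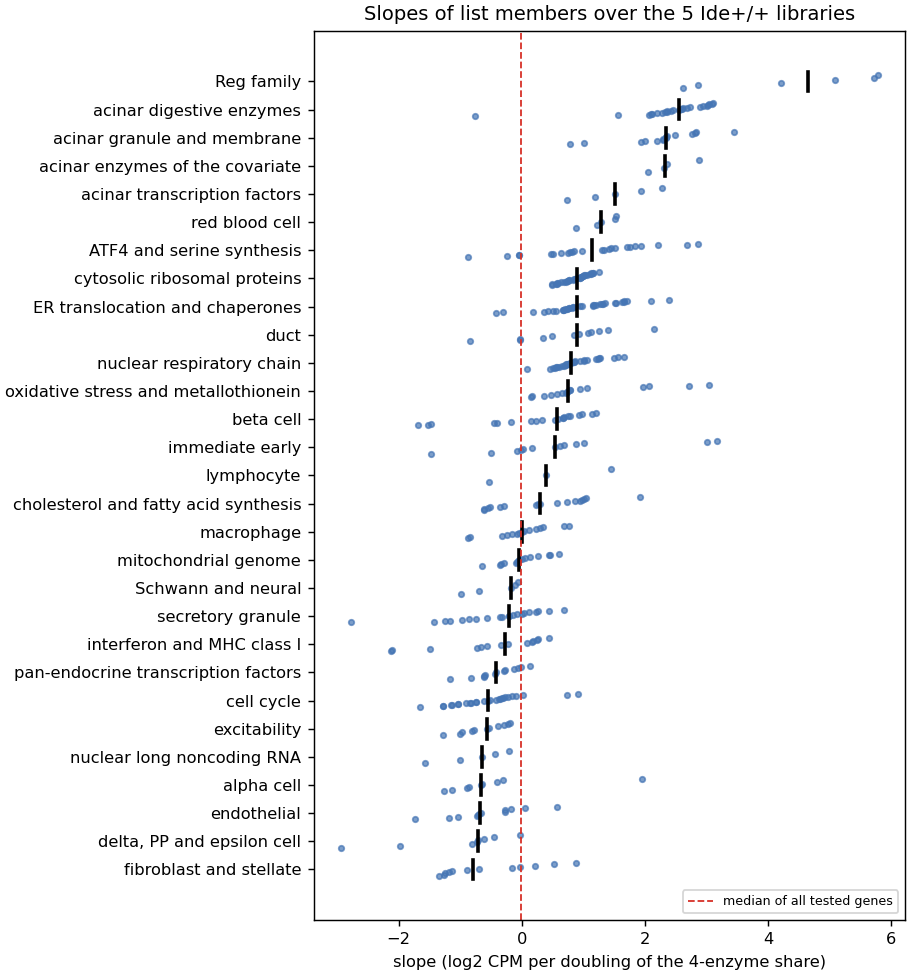
Slope on the 4-enzyme share (horizontal axis, log2 CPM per doubling of the share) for the tested members of each gene list, with all 5 libraries. Each point is a gene, the bar is the list's median and the dashed line the median of all genes tested (-0.01, or -1.59 on library totals). The Reg family (median 4.65) and the acinar lists (2.34 to 2.56 for enzymes and granule genes) lie to the right of 0, and the alpha, delta and excitability lists lie mostly to the left.

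Most digestive enzymes other than the 4 had positive slopes too. Of 25 enzymes 24 had one, with a median of 2.56, and 23 rose and 1 fell in replicates 2 to 5. With replicates 2 and 3 added together 0 of the 25 were called. The median was 0.89 on library totals, against -1.59 for all genes. By construction the 4 enzymes had positive slopes, of 2.88 (SE 0.76) for Cela2a, 2.36 (SE 0.67) for Pnlip, 2.30 (SE 0.69) for Cpa1 and 2.05 (SE 0.75) for Ctrb1, and these are not results. Prss2 was at 50241, 11760.4, 12014, 34240.1 and 38990.4 CPM and Rnase1 at 58347, 8155, 8946, 21853 and 44886. Both were lowest in replicates 2 and 3, with no overlap with the other libraries. Try4 had the steepest slope of the enzymes among the 20 most abundant genes, 3.10 (SE 0.75), and Cela1 the shallowest, 2.10 (SE 0.70). The enzyme that fell was Prss1, chosen with its values known. It was at 8.36, 4.60, 4.93, 1.27 and 0.836 CPM, far under Prss2, with a slope of -2.79 (adjusted p = 0.00997) in edgeR's fit of replicates 2 to 5 and of -0.75 (SE 1.08) over all 5 libraries.

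Zymogen granule and acinar membrane genes were alike. All 16 had a positive slope (median 2.34), and 15 rose in replicates 2 to 5, of which 0 were called with replicates 2 and 3 added together. Zg16, a lectin of the granule membrane, was at 5599, 1412, 1423, 4309.9 and 4706 CPM, and Sycn, syncollin of the granule, at 9685, 2140.1, 2171, 5979 and 6059. Both had their 2 lowest values in replicates 2 and 3. The 5 acinar transcription factors also had positive slopes (median 1.51, and -0.18 on library totals). 1 of them, Ptf1a, rose. It was at 28.2, 4.53, 5.65, 10.8 and 12.0 CPM, with a slope of 1.53 (adjusted p = 0.014) in replicates 2 to 5, and was not called with replicates 2 and 3 added together. Rbpjl was at 79.1, 44.6, 40.7, 104 and 60.8 CPM and did not pass, although its high and low libraries did not overlap, with an adjusted p of 0.0994 without replicate 1.

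Reg proteins are secreted C-type lectins of the pancreas and gut, made by acinar cells and increased in injury. Their slopes were the steepest of any list, with a median of 4.65 for the 6 tested members, all of which rose in replicates 2 to 5. 4 of the 6 were also called with replicates 2 and 3 added together. Reg4, the seventh member, was listed at 0 in all 5 libraries. The members did not share 1 pattern over the libraries. Reg1 was at 18779.7, 3562, 3642, 11564 and 12684 CPM and Reg3d at 136, 24.7, 27.1, 97.8 and 114, with slopes of 2.62 (SE 0.66) and 2.85 (SE 0.38), close to those of the enzymes, and replicate 1 was their highest library. Reg2 was at 118, 76.6, 74.7, 1134 and 834 CPM and Reg3b at 43.3, 10.9, 10.6, 198 and 229. For these replicates 4 and 5 stood far above the rest, and replicate 1 was nearer to replicates 2 and 3. Reg3a, at 13.7, 1.85, 1.37, 23.4 and 67.7 CPM, and Reg3g, at 20.7, 1.298, 1.27, 9.81 and 49.1, were highest in replicate 5. Slopes of Reg2, Reg3a, Reg3b and Reg3g ran from 4.21 to 5.78, and Reg3b was chosen with its values known. The Reg genes are a family of close copies, so reads could be split among them. The median spread (coefficient of variation of CPM over the 5 libraries) was 1.10 in the Reg family, 0.70 in the digestive enzymes and 0.30 in all genes tested.

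**Figure D4:**
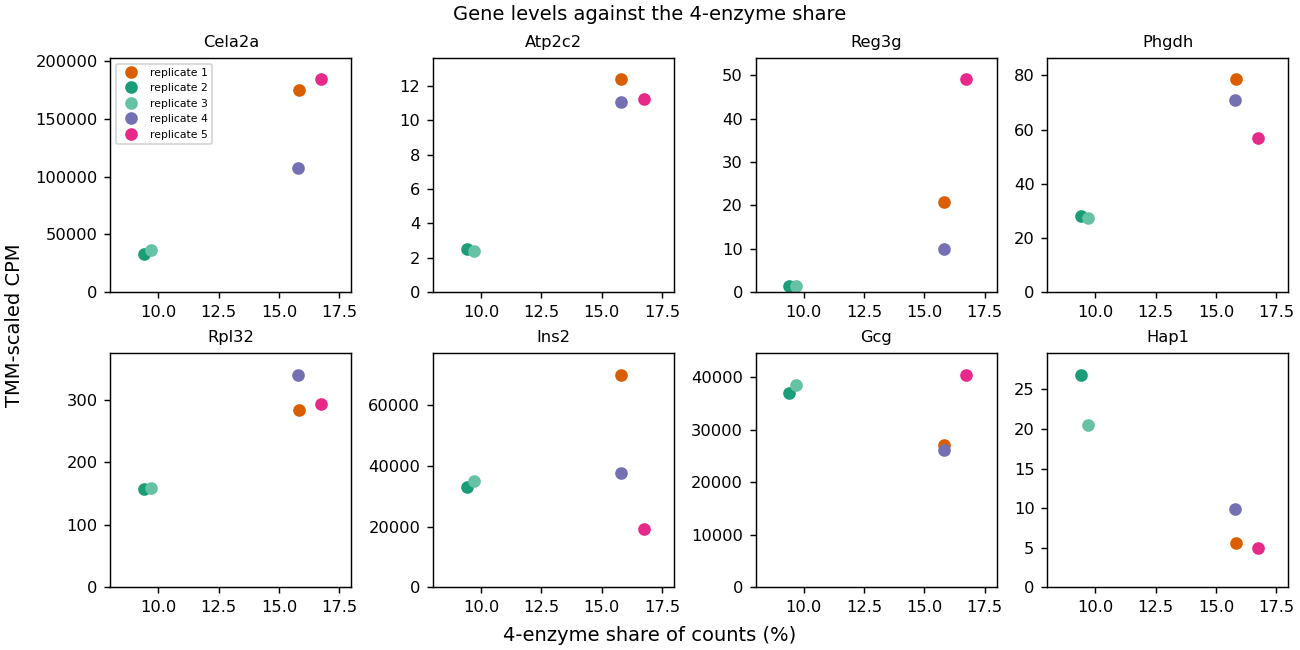
TMM-scaled CPM (vertical axes, linear, from 0) against the 4-enzyme share of counts (horizontal axis, percent) for Cela2a, Atp2c2, Reg3g, Phgdh (the first enzyme of serine synthesis), Rpl32, Ins2, Gcg and Hap1, with 1 point per Ide+/+ library. Cela2a, Atp2c2, Reg3g, Phgdh and Rpl32 are lowest and Hap1 is highest in the 2 libraries at 9.40% and 9.69%, while Ins2 and Gcg of these libraries lie within the range of the other 3.

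Protein-coding genes outside the lists were named by the smallest p, since none was called with 5 libraries. This choice favours genes whose levels in replicates 2 and 3 lie apart from the rest. Such gaps in the genes named this way are therefore a description and not a further result. The genes with positive slopes were all at an adjusted p of 0.0999 in edgeR's fit of 5 libraries, and all rose in replicates 2 to 5. Of those named here, Cyp39a1 was not called with replicates 2 and 3 added together. Atp2c2, a secretory pathway calcium pump, was at 12.4, 2.49, 2.41, 11.1 and 11.2 CPM, with a slope of 2.94 (SE 0.31). Homer2, a scaffold of calcium signalling complexes, was at 18.6, 5.49, 5.20, 21.6 and 19.98 CPM. For both genes replicates 2 and 3 lay below the other libraries with no overlap. P2ry14, a receptor for UDP-glucose, had a slope of 2.67 (SE 0.34), Cyp39a1, an oxysterol hydroxylase, 2.08 (SE 0.28), and Klk1b4, of the kallikrein family of close copies, 2.84 (SE 0.35). Casp9, the initiator caspase of the mitochondrial death pathway, was at 166, 30.2, 33.6, 120.5 and 163 CPM with a slope of 2.95 (SE 0.37). The Casp9 gene (chr4:141793612-141815976, GRCm38, plus strand) overlaps Cela2a and Ctrc, which lie on the minus strand and are also acinar. The strand setting of the counting is not given in the sources used here, so reads of Casp9 and of these enzymes cannot be told apart.

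Of the 10 genes with negative slopes named in the same way, 7 fell in replicates 2 to 5, and 1 of the 7, 1810009J06Rik, was called with replicates 2 and 3 added together. 1810009J06Rik, a trypsin-like gene, was at 2.55, 24.1, 24.5, 0.656 and 0.456 CPM, with a slope of -5.89 (SE 0.70). Replicates 2 and 3 were far above the other 3 with no overlap, opposite to the abundant trypsins. The division of reads among trypsin copies is uncertain. Hap1, a huntingtin-associated transport protein, was at 5.59, 26.9, 20.6, 9.93 and 4.94 CPM, Kcnh6, a potassium channel, at 2.27, 9.21, 7.14, 3.90 and 2.81, and Pde10a, a cyclic nucleotide phosphodiesterase, at 1.77, 10.7, 9.53, 5.09 and 2.28. Replicates 2 and 3 were highest for all 3 and did not overlap with the others, a pattern that the choice by slope favours. Mast2, Pip5k1c and Atg16l2 also fell, with slopes of -1.28, -1.17 and -1.49. Zfhx2, Banp and Zfp523 had slopes of -1.34, -1.40 and -1.29 over all 5 libraries and an adjusted p of 0.050 to 0.057 without replicate 1.

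Over all 5 libraries, islet cell genes did not move as 1 group with the share. Without replicate 1 most of their slopes were negative. They were so for 19 of 20 beta cell genes, 8 of 9 alpha cell genes and all 8 delta, PP and epsilon cell genes. The list medians there were -0.55, -0.44 and -0.41, and few members were called. The beta cell list had a median slope of 0.56 with 5 libraries and of -0.55 without replicate 1, so its direction rested on that library. On library totals it was -1.19. 14 of its 20 genes had a positive slope with it and 1 without it. Ins2 was at 70235, 33135, 35073, 37694 and 19193 CPM and G6pc2 at 941, 317, 319, 401 and 173, with replicate 1 far above the other 4 and replicate 5 lowest. Their slopes were 0.33 (SE 0.87) and 0.78 (SE 0.89), and -0.41 and -0.27 without replicate 1, none of which passed the test. 1 beta cell gene, Nnat (neuronatin, a small membrane protein of beta cells), fell, with a slope of -1.87 (adjusted p = 0.0169) in edgeR's fit of replicates 2 to 5.

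Alpha cell genes had a median slope of -0.66 and 1 of the 9 tested had a positive one. Gcg, at 27112, 36983, 38600.2, 26149.6 and 40561 CPM, overlapped between low and high libraries and had a slope of -0.30 (SE 0.63). The exception was Slc38a5, a glutamine transporter, at 139, 40.1, 43.4, 81.4 and 128 CPM, which rose with a slope of 1.74 (adjusted p = 0.0143) in replicates 2 to 5, and acinar cells express it too. All 8 delta, PP and epsilon cell genes had negative slopes (median -0.71), and 1, Ghrl, fell. Ghrl was at 1.70, 6.35, 6.77, 0.451 and 2.05 CPM, with -3.29 as its slope in replicates 2 to 5 (adjusted p = 0.0471, edgeR). Ppy, at 1715, 4885, 5411, 5663 and 2855 CPM, did not pass, and its libraries overlapped. The delta, PP and epsilon median was -0.41 without replicate 1. Nnat, Slc38a5 and Ghrl were chosen with their values known, and none of the 3 was called with replicates 2 and 3 added together.

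The 13 tested endocrine transcription factors had a median slope of -0.43 and none was called. Their median spread over the 5 libraries, 0.22, was below the 0.30 of all genes. Isl1, at 66.6, 59.2, 61.6, 42.0 and 60.0 CPM, was level but for replicate 4, and Pax6 was at 45.9, 50.9, 51.2, 39.8 and 28.8. The 21 genes of secretory granules (median slope -0.21, or -0.42 without replicate 1) gave no call. Chga was at 1382, 1268, 1166, 946 and 513 CPM, with replicate 5 lowest. All 11 genes of membrane excitability had negative slopes (median -0.56), and 1, Abcc8, the sulfonylurea receptor of the KATP channel, fell. Abcc8 was at 61.0, 141, 116, 83.2 and 56.2 CPM, with a slope of -1.19 (adjusted p = 0.0409) in edgeR's fit of replicates 2 to 5, and replicates 2 and 3 did not overlap with the rest. With replicates 2 and 3 added together it was not called.

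Genes of the cytosolic ribosome and of the endoplasmic reticulum had mostly positive slopes relative to all genes. All 33 cytosolic ribosomal protein genes had a positive slope, with a median of 0.90, and 22 of them rose in replicates 2 to 5. With replicates 2 and 3 added together 0 of the 33 were called. The median was -0.67 on library totals, where that of all genes was -1.59. Rpl32 was at 283, 157, 158, 341 and 294 CPM, with replicates 2 and 3 lowest, and rose with a slope of 1.29 (adjusted p = 0.0213) in replicates 2 to 5, against 1.25 (SE 0.38) over all 5. Of 36 genes for translocation into the endoplasmic reticulum and folding there, 34 had a positive slope (median 0.89, 0.56 without replicate 1, and -0.78 on library totals) and 10 rose, of which 0 were called with replicates 2 and 3 added together. Herpud1, of the degradation machinery of that organelle, was at 345, 266, 282, 563 and 587 CPM and rose with a slope of 1.39 (adjusted p = 0.0146) in replicates 2 to 5, against 1.16 (SE 0.46) over all 5. Hspa5, the chaperone BiP, was at 1629, 553, 596, 1050.1 and 753 CPM and did not pass (adjusted p = 0.14, edgeR). Xbp1, the transcription factor that enlarges the secretory pathway, was at 403, 114, 124, 202 and 257 CPM and rose with a slope of 1.25 (adjusted p = 0.0173) in replicates 2 to 5, and it was chosen with its values known.

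Genes of the ATF4 response, which follows amino acid and folding stress, and of serine synthesis had a median slope of 1.14 (-0.51 on library totals). 20 of 24 were positive, and 11 rose in replicates 2 to 5, of which 0 were called with replicates 2 and 3 added together. Nupr1, a small stress-induced chromatin protein, was at 768, 271, 355, 1412 and 1966 CPM, highest in replicates 5 and 4, and Gatm, the first enzyme of creatine synthesis, at 642, 95.6, 101, 247 and 329, highest in replicate 1. Both rose in replicates 2 to 5, with slopes of 3.18 (adjusted p = 0.00453) and 2.02 (adjusted p = 0.00494), against 2.87 (SE 0.60) and 2.68 (SE 0.65) over all 5 libraries. Acinar cells express both. All 17 genes of oxidative stress and metallothioneins had positive slopes (median 0.74, and -0.86 on library totals), and 4 rose, of which 1 was called with replicates 2 and 3 added together. Mt1, a metallothionein that binds zinc, was at 144, 55.5, 51.8, 302 and 227 CPM and Prdx4, a peroxiredoxin of the endoplasmic reticulum, at 185, 47.4, 51.2, 127 and 128. For Mt1, as for Reg2 and Reg3b, replicates 4 and 5 were above replicate 1.

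Respiratory chain genes are encoded in the nucleus and in the mitochondrial genome. All 30 nuclear genes had a positive slope (median 0.79, and -0.84 on library totals), and 13 rose, with 0 called when replicates 2 and 3 were added together. Of the 30, Ndufa1, a subunit of complex I, was at 55.6, 40.3, 43.4, 61.7 and 64.3 CPM. The 15 genes of the mitochondrial genome had a median slope of -0.05, or 0.51 without replicate 1, and none was called. mt-Cytb was at 3343, 16783, 18062, 17644 and 40573 CPM, with replicate 1 lowest and replicate 5 highest. Whether the nuclear and mitochondrial sets differ was not tested.

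Duct markers had a median slope of 0.89 for 12 genes (-0.67 on library totals), and 3 rose, of which 0 were called with replicates 2 and 3 added together. Tff2, a trefoil peptide that acinar cells make too, was at 886, 277, 282, 855 and 858 CPM and rose with a slope of 2.09 (adjusted p = 0.00664) in replicates 2 to 5, against 2.15 (SE 0.44) over all 5. The keratins Krt18 and Krt19 rose with slopes of 1.25 and 1.299 in replicates 2 to 5. No gene of the endothelial, fibroblast, macrophage or Schwann lists was called in replicates 2 to 5, and the medians of these 4 lists lay between -0.30 and 0.20 in that fit. The 5 red blood cell genes had a median slope of 1.28 (-0.29 on library totals) without a call. Of the 27 cell cycle genes 24 had negative slopes (median -0.55), and none was called. Of 14 interferon and MHC class I genes 3 fell in replicates 2 to 5, of which 0 were called with replicates 2 and 3 added together. They were Irf1, Irf7 and Ifit3, with slopes in replicates 2 to 5 of -1.08 (adjusted p = 0.0284), -2.21 (adjusted p = 0.0148) and -1.93 (adjusted p = 0.024). B2m, the light chain of MHC class I, was at 68.5, 63.6, 60.9, 65.2 and 97.2 CPM and did not pass.

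The other lists held at most 1 call each, and none with replicates 2 and 3 added together. The 13 tested immediate early genes had a median slope of 0.54 (0.35 without replicate 1, and -0.97 on library totals), and 1, Nr4a1, an orphan nuclear receptor, fell with a slope of -1.04 (adjusted p = 0.0499) in edgeR's fit of replicates 2 to 5. The 17 genes of cholesterol and fatty acid synthesis had a median slope of 0.29, or -0.06 without replicate 1, and 1, Insig1, which holds back sterol synthesis, rose. It was at 29.2, 15.2, 15.5, 26.5 and 23.2 CPM, lowest in replicates 2 and 3. Of 3 lymphocyte genes tested, Igkc, the constant region of the kappa light chain, fell, and was at 5.95, 1.298, 1.79, 0.164 and 0.152 CPM, highest in replicate 1. Its slope was -4.17 in replicates 2 to 5 and 0.40 (SE 1.67) over all 5 libraries, so its direction rested on replicate 1. The 5 nuclear long noncoding RNAs tested had a median slope of -0.65, or -0.19 without replicate 1, and gave no call, and Meg3, an imprinted one, was at 182, 1044, 1058, 747 and 454 CPM.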

How the data were processed

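RNA-seq of total RNA, 100 ng per library with an RNA integrity number above 6.5 per the labels' protocols, was measured in each library. The authors deposited 1 table per sample with RSEM expected counts and TPM for 55487 Ensembl gene IDs, per the file headers. STAR 2.7.1a, RSEM 1.3.1 and the build GRCm38 are named in the submitters' processing notes. The annotation release and the strand setting are not given in the sources used here. RSEM divides reads shared by similar genes, which bears on the amylase, trypsin, kallikrein and Reg families.

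Of the IDs, 55227 matched a gene symbol in GENCODE M21, and 1 of 460 list genes (Tmem27) did not. Levels and ranks are the deposited TPM. The deposited expected counts, 19277269 to 33371642 per library, were rounded to whole numbers and filtered in edgeR 4.0.16 (filterByExpr, a count minimum of 10 and a total of 15). TMM scaling and the quasi-likelihood test (robust) followed, with log2 of the summed share of Cpa1, Cela2a, Pnlip and Ctrb1 as the only term, 3 residual degrees of freedom and Benjamini-Hochberg adjustment over all genes tested. The 4 enzymes were left out of counts of called genes. Lists are described by counts and medians. Some named genes are not reported here.

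Simulated counts with known slopes were used as a check for the 5 libraries (4 draws with 14620 to 14901 genes tested). The test called 1% of genes with a slope of 1 and 42% of those with a slope of 2, and 25 of 197 calls were false, so the test misses most slopes of this size and makes more false calls than the threshold allows.

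Genes were named by rule. They are the 4 enzymes, the 20 highest in mean TPM, the 10 protein-coding genes in each direction with the smallest p (mean of at least 5 CPM and 1 sign of slope without each library in turn), the 2 most abundant members of each list, and Xist, Ddx3y and Ide. Prss1, Reg3b, Iapp, Sst, Ghrl, Nnat, Slc38a5, Krt18, Krt19, Xbp1, Irf1, Irf7, Ifit3, Nr4a1, Insig1, Phgdh, Eif2s3y, Kdm5d, Uty and the cell type factors and glucose genes given with their TPM fall outside it and were chosen with their values known. The group and all lists were chosen with earlier results of these data known.

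Alternatives were DESeq2 1.42.0, limma-voom and limma on log2(TPM + pseudocount) (limma 3.58.1), other scalings, filters and covariates, and leaving out each library. No genotype comparison was made. Promoter sequences are those of RefSeq (GRCm38.p6).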

Additional observations from a re-analysis of the deposited data

Results flagged for a closer look

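Among 170 values looked at over the 5 libraries, 7 had 1 library whose gap to the nearest other exceeded 0.71 of the whole range (Dixon's 95% limit for 5 values). Chance alone gives about 1 in 20, and 7 of 170 is no more than that. Replicate 1 gave 5 of the 7. Its Ins2 to Ppy ratio of TPM was 45.7, above 7.19 to 7.52 in the others, and its Pyy to Gcg ratio was 0.14, below 0.26 to 0.30. Cel, carboxyl ester lipase, was at 22162 TPM there, above 10191 to 13397, and Dusp1, a phosphatase induced by stress, was at 3.82 TPM, below 16.6 to 21.3. Xist was at 1.64 TPM, above 0 to 0.11. Replicate 5 gave the Cela2a to Ctrb1 ratio of 10.4, above 3.37 to 4.40. Replicate 2 gave Cidec, a fat cell gene, at 0.03 TPM, listed at 0 in the other 4.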

How the results depend on the processing

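The count of genes passing the threshold for covariation with the 4-enzyme share depended on the method. Against 0 rising and 0 falling genes with edgeR, DESeq2 gave 508 and 63, limma-voom 16 and 2, no low-count filter 9 and 4, library totals 30 and 9576, limma on log2(TPM + 1) 55 and 6154, on log2(TPM + 0.1) 48 and 4831, on log2(TPM + 1) without a TPM filter 0 and 1, and the share of all acinar lists 162 and 11. Leaving out each library in turn gave 0 to 753 rising and 0 to 121 falling genes, and of these 5 fits the one without replicate 1 gave calls. Adding replicates 2 and 3 together, chosen after seeing the data, gave 0 and 0, and 25 and 1 without replicate 1. The cause of these differences was not tested. Calls with the share of all acinar lists include genes that make up part of that share. DESeq2 size factors, totals outside the acinar and Reg lists and the share in percent gave 0 and 0. The median slope of all genes was -0.22 with totals outside the acinar lists, -0.17 without the filter, -0.96 with log2(TPM + 1) and -1.26 with log2(TPM + 0.1). For the 4 enzymes and the 20 genes chosen by the smallest p, 24 genes in all, slopes were recomputed under these alternatives. Of these slopes 293 kept their side of the threshold, 139 passed it and 0 reversed past it. The 20 genes were chosen to keep their sign without each library, and the 4 enzymes make the covariate. The absence of reversals is therefore partly set by the choice and is not a check of the slopes. 11 genes held 50% of mean TPM, or 7 after the acinar and Reg genes were taken out and TPM rescaled, and genes at the TPM minimum in all libraries numbered 7208, or 2645 with a minimum of 5. No paired analysis was possible because no groups were compared. With 5 libraries at 2 levels of the share, a smooth relation and a step cannot be told apart.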
